A study of Mus musculus with 64 samples.

Results

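Liver tumours of mice treated with BEZ235 were set against liver tumours of mice treated with RAD001. The members were all arrays labelled as tumours of these treatments, 10 tumours from 6 BEZ235 animals and 10 tumours from 6 RAD001 animals, of 64 arrays and 31 animals in all. All were male C57BL/6 mice that had received 50 mg/kg of diethylnitrosamine at 2 weeks of age, a carcinogen after which hepatocellular tumours arise. From about 44 weeks they were gavaged for 28 days, receiving 2 doses per day, and were fasted for 3 h and killed at 48 weeks. The BEZ235 group received 30 mg/kg BEZ235 and the RAD001 group 10 mg/kg RAD001. The last BEZ235 dose came 1 h before sacrifice, and the last RAD001 dose at the start of the 3 h fast, so that compound, dose and time since the last dose cannot be told apart. Tumours from 4 animals given 2.5 mg/kg RAD001 with 18 mg/kg BEZ235 (7 arrays) and tumours from 6 placebo animals (10 arrays) are given beside them.

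RAD001 (everolimus) binds FKBP12 and inhibits the mTORC1 kinase complex allosterically, which leaves much of mTORC2 and of PI3K untouched. BEZ235 (dactolisib) occupies the catalytic sites of PI3K and of mTOR, and so reaches both mTOR complexes and the AKT kinase below PI3K. In hepatocytes, insulin acts through PI3K and AKT to hold FOXO transcription factors out of the nucleus, and mTORC1 drives protein, lipid and nucleotide synthesis. Inhibition of mTORC1 is also known to release feedback that restrains PI3K and ERK signalling.

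Levels are log2 intensities of Illumina probes, with a floor of 4, and tumours of an animal were averaged. Differences are BEZ235 minus RAD001 on that log2 scale, with the standard error (SE) of limma's moderated test, two-sided, fitted over 10495 genes in all 4 tumour groups. A gene passed when its Benjamini-Hochberg adjusted p was below 0.05. The authors had quantile-normalized each treatment on its own, and all arrays were normalized together again before this comparison. Among BEZ235 animals 3 gave 1 tumour, 2 gave 2 and 1 gave 3, and among RAD001 animals 2 gave 1 tumour and 4 gave 2.

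As a check of the tissue, a tumour score was built from 578 genes raised and 498 genes lowered in placebo tumours against placebo livers, with placebo livers at 0 and placebo tumours at 1. BEZ235 tumours scored 0.302 in animal 693, 0.678 in animal 759 and 0.866 to 1.036 in the other 4 animals. RAD001 tumours scored 0.458 in animal 732, 0.573 in animal 730, 0.708 in animal 763 and 0.812 to 1.047 in the other 3. Each treatment thus held tumours whose expression lay toward liver, and results are also given without animals 693, 759, 732 and 730. These had the lowest average scores, and 4 animals of each treatment remain without them. The setting does not remove every such tumour. Kept RAD001 tumours scored 0.523 (animal 763, tumour 1) and 0.599 (animal 772, tumour 2), against 0.745 and 0.612 in the removed animal 759. In bulk tissue, fewer cells of a type and less RNA per cell cannot be told apart. Single arrays of the same treatment from other animals correlated with a median r of 0.962 across genes (81 pairs), and arrays of different treatments with 0.965 (100 pairs).

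The comparison asks whether catalytic inhibition of PI3K and mTOR left another transcript pattern in tumours than allosteric inhibition of mTORC1. In tumours 1 gene passed, Depp1, which was higher with BEZ235. It was 1 of 10495 genes, or 0.00953%, and the next adjusted p was 0.247. Without the adjustment, 402 genes lay below 0.05 (3.83%), 207 of them higher with BEZ235 (1.97%) and 195 lower (1.86%). The median difference over all genes was -0.003, with a median SE of 0.17, and 32 genes differed by 1 or more in either direction. In 17 genes (0.162%) all BEZ235 animals lay on 1 side of all RAD001 animals, 5 of them higher (0.0476%) and 12 lower (0.114%).

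**Figure D1:**
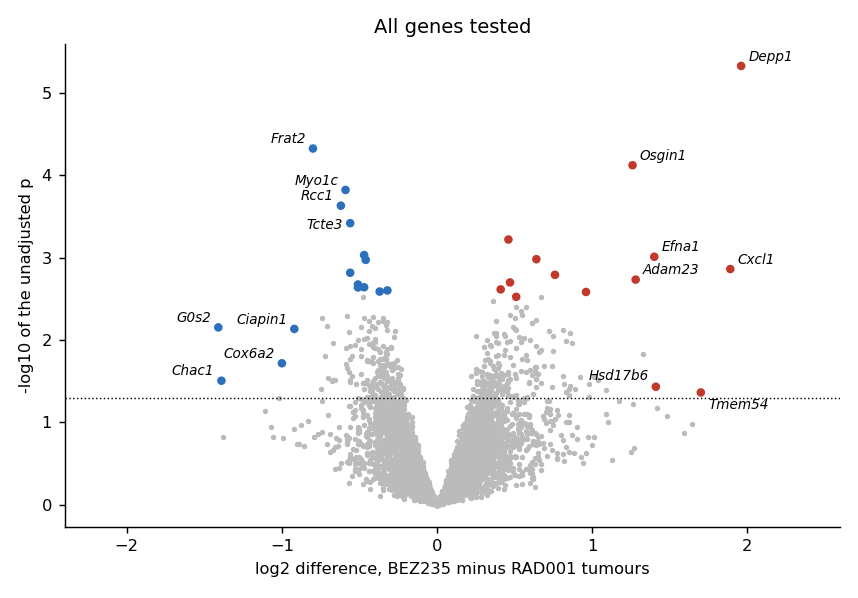
Log2 difference (BEZ235 minus RAD001 tumours, x axis) against -log10 of limma's unadjusted p (y axis) for all 10495 genes, with the genes of lowest p or largest difference coloured by sign and the dotted line at an unadjusted p of 0.05. Depp1 stands alone at the upper right with a difference of 1.96, and Frat2 has the lowest p among genes with lower levels in BEZ235 tumours.

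Depp1 encodes a small protein that FOXO factors induce during fasting and when PI3K or AKT is inhibited. The gene lies at chr6:116650684-116652847 on GRCm38.p6 and was read by 1 probe. Its lowest, median and highest levels were 11.06, 12.35 and 12.50 in BEZ235 tumours, against 8.89, 10.42 and 11.25 in RAD001 tumours. All 6 BEZ235 animals lay above the RAD001 mean, and the groups overlapped only through BEZ235 animal 755, at 11.06, and RAD001 animal 763, at 11.25. The means were 12.15 ± 0.54 with BEZ235 and 10.19 ± 0.82 with RAD001 (SD, n = 6 each). The Depp1 difference was thus 1.96 (SE 0.32, 95% interval 1.29 to 2.64), or 3.90-fold, with limma's adjusted p = 0.0491. Placebo tumours averaged 11.16 ± 0.56, between the 2 treatments, and combination tumours 12.33 ± 0.23.

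The call was close to the limit. Over 25 alternatives the Depp1 difference stayed between 1.64 and 2.38, while its adjusted p ran between 0.00019 and 0.884. With 1 animal left out it missed the limit in 10 of 12 fits (adjusted p 0.089 to 0.229), and passed without BEZ235 animal 755 (0.00718) or RAD001 animal 763 (0.00778). Without animals 693, 759, 732 and 730 the difference was 1.64 and limma's adjusted p was 0.884.

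Livers of the same treatments, taken from 6 BEZ235 and 7 RAD001 animals, are separate arrays that the tumour comparison did not use, though 5 animals of each treatment gave both tissues. Depp1 in liver had a lowest, median and highest level of 10.97, 11.81 and 12.29 with BEZ235, against 8.18, 8.89 and 10.52 with RAD001. The groups did not overlap, and the difference was 2.62 (SE 0.31, limma's adjusted p = 3.15e-05). The tumour difference was smaller than the liver difference by 0.68 (SE 0.44, unadjusted p = 0.129 in limma), which does not show that the tissues differ. BEZ235 animal 755, lowest among the tumours, was also lowest among the BEZ235 livers at 10.97. In livers taken from animals that gave no tumour array, Depp1 stood at 11.70 in BEZ235 animal 725, against 8.43 and 10.52 in RAD001 animals 760 and 745.

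The promoter windows of Depp1 and of Frat2, the gene of lowest p with a lower level in BEZ235 tumours, are shown because FOXO factors bind forkhead words. They run 250 bases before to 50 bases after the gene's start, 5′ to 3′ on the gene's strand, from RefSeq on GRCm38.p6. Capitals mark the 7-base forkhead word TGTTTAC or its reverse complement GTAAACA. Depp1 lies at chr6:116650434-116650733 on the plus strand and Frat2 at chr19:41848083-41848382 on the minus strand.
Depp1: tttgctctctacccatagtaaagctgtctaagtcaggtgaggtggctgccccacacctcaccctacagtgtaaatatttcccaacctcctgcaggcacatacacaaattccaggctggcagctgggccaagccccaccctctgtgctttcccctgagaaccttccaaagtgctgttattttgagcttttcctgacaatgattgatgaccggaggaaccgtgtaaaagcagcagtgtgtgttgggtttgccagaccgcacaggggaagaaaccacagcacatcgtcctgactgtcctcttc
Frat2: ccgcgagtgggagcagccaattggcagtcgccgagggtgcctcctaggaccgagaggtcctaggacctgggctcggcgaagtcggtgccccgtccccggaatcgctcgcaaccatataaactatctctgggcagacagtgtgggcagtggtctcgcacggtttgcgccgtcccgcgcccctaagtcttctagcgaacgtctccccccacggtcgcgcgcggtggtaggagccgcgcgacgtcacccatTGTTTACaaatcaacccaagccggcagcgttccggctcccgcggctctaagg
Frat2 holds the word once, over bases -2 to 5 around its start, and the Depp1 window does not hold these exact letters. Only this word and its reverse complement were searched, so variants of the forkhead word in either window were not counted. Of 32851 mouse promoter windows of the same length, 1199 (3.65%) held the word on either strand. A match is a description of the letters and no evidence of binding.

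Osgin1, an oxidative stress-induced growth inhibitor that is a target of the stress factor NRF2, had the next lowest p among genes with higher levels. Its lowest, median and highest levels were 10.44, 11.38 and 11.56 in BEZ235 tumours, against 9.09, 10.13 and 10.30 in RAD001 tumours. Every BEZ235 animal lay above every RAD001 animal. The difference was 1.26 (SE 0.26), which missed the limit with limma's adjusted p = 0.263. Osgin1 averaged 11.20 with BEZ235 and 9.94 with RAD001, beside 12.11 in combination tumours and 11.11 in placebo tumours. In livers the Osgin1 difference was 0.82 (unadjusted p = 0.00182 in limma).

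Frat2, which binds the kinase GSK3 in Wnt signalling, had lowest, median and highest levels of 4.99, 5.61 and 5.79 in BEZ235 tumours, against 6.05, 6.33 and 6.62 in RAD001 tumours. The groups of animals did not overlap, though single tumours did. RAD001 tumour 2 of animal 700 stood at 5.52 and BEZ235 tumour 2 of animal 712 at 6.26. The difference was -0.80 (SE 0.16, limma's adjusted p = 0.247), and placebo tumours averaged 5.64. In livers the Frat2 difference was -1.09 and passed (limma's adjusted p = 0.0204), again with no overlap. Its liver means were 5.69 with BEZ235, 6.78 with RAD001 and 6.21 with placebo.

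Efna1, a membrane-bound ligand of EphA receptors, had lowest, median and highest levels of 8.83, 9.85 and 11.33 in BEZ235 tumours, against 8.43, 8.60 and 8.96 in RAD001 tumours. RAD001 animals lay close together, while BEZ235 animals were spread more widely, with animal 755 lowest. The difference was 1.40 (SE 0.37, unadjusted p = 0.000971 in limma), and in livers it was 1.04 (unadjusted p = 0.000225). Cxcl1, a chemokine that attracts neutrophils, stood at 9.30, 10.56 and 11.25 in BEZ235 tumours, against 6.39, 8.63 and 10.53 in RAD001 tumours. These groups overlapped, and the difference was 1.89 (SE 0.51, unadjusted p = 0.00137 in limma). Beside it, 4 of 7 neutrophil markers had a positive difference, and their mean log2 level ran over 4.84 to 5.83 with BEZ235 and 4.71 to 5.36 with RAD001. Their part in the Cxcl1 difference was not tested.

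**Figure D2:**
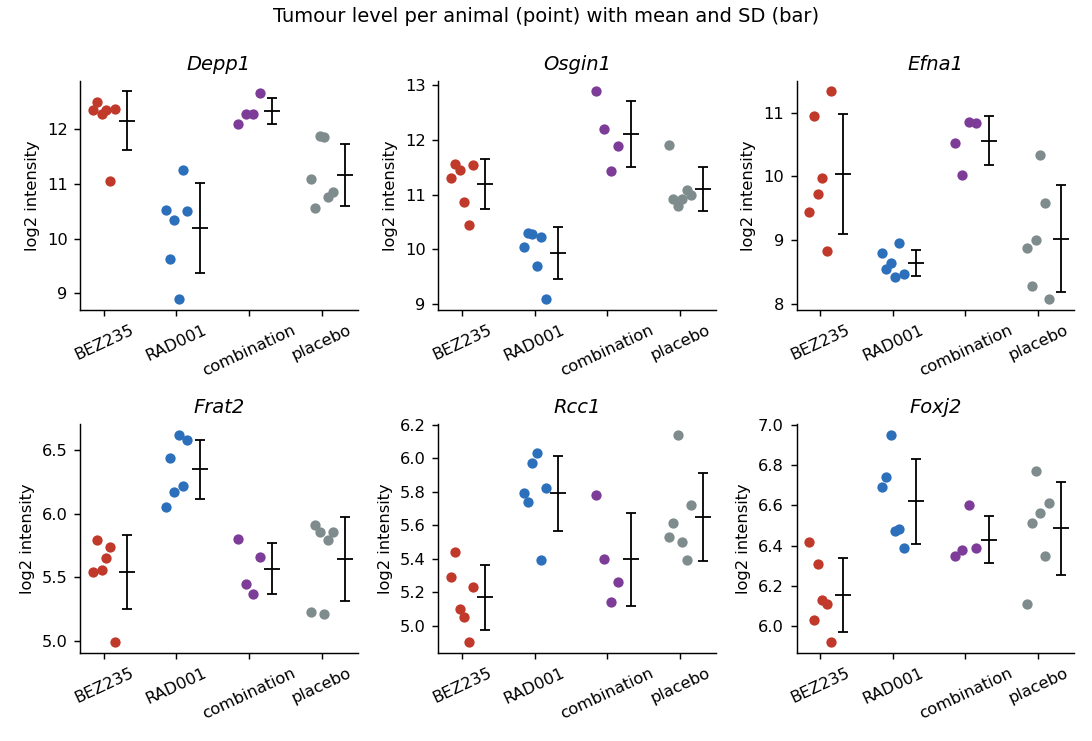
Log2 intensity in tumours (y axis) of 6 genes, with 1 point per animal in BEZ235, RAD001, combination and placebo groups and the group mean with SD beside the points. Depp1, Osgin1 and Efna1 have higher means with BEZ235 than with RAD001, while Frat2, Rcc1 and Foxj2 have lower ones.

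Among the 12 genes of lowest p with higher levels in BEZ235 tumours, the differences ran between 0.41 and 1.96. Cnr2, the cannabinoid receptor of immune cells, differed by 0.96 (SE 0.28) and in livers by 0.82 (unadjusted p = 0.000148 in limma). Adam23, a membrane protein of the ADAM family without protease activity, differed by 1.28 (SE 0.36), but its 3 probes gave differences of 0.08 to 1.28. Ackr1, a chemokine receptor that binds without signalling, differed by 0.46, Dixdc1, a Wnt pathway protein, by 0.47, and Chpf, a chondroitin polymerizing factor, by 0.64. Their levels lay close to the floor, between 4.35 and 5.83 in all animals of both treatments. The other members were Ap5b1, a subunit of the AP-5 adaptor, at 0.76, the zinc finger gene Zfp27 at 0.51 (its 2 probes at 0.05 and 0.51) and the olfactory receptor Olfr295 at 0.41. For Zfp27 the difference was 0.20 without animals 693, 759, 732 and 730. Olfr295 also lay close to the floor, at 4.35 to 5.22 with BEZ235 and 4.37 to 4.62 with RAD001.

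Among the 12 genes of lowest p with lower levels in BEZ235 tumours, the differences ran between -0.80 and -0.32. Rcc1, the nucleotide exchange factor of the GTPase Ran, differed by -0.62 (SE 0.14, limma's adjusted p = 0.49), and 6 of 6 BEZ235 animals lay below the RAD001 mean of 5.79. Its liver difference was also -0.62 (unadjusted p = 0.00498 in limma). Foxj2, a forkhead transcription factor, differed by -0.47 in tumours and -0.34 in livers, and Zbtb24, a zinc finger factor, by -0.46 and -0.29. Myo1c, an unconventional myosin of membrane traffic, differed by -0.59 with no overlap of animal averages, though its 3 probes ran between -0.59 and 0.03. Its levels were close to the floor, at 4.50 to 4.80 with BEZ235 and 4.87 to 5.49 with RAD001. Tcte3, a dynein light chain, differed by -0.56 and Vdr, the vitamin D receptor, by -0.51, both at levels of at most 5.57. The remaining members were Dcun1d2 (-0.56) of cullin neddylation, Zfp74 (-0.47), the transporter Slc22a26 (-0.51), the arginine methyltransferase Prmt7 (-0.32) and Tcf25 (-0.37). With 1 tumour per animal the Slc22a26 difference was -0.19. Zfp74 and Slc22a26 also lay close to the floor. Zfp74 stood at 4.30 to 4.59 with BEZ235 and 4.45 to 5.27 with RAD001. Slc22a26 stood at 4.48 to 4.95 with BEZ235 and 4.59 to 5.66 with RAD001.

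The 5 largest differences in each direction, among genes below an unadjusted p of 0.05, added further genes. Tmem54, a tetraspan membrane protein, differed by 1.70 (SE 0.79), with animals of both treatments spread widely, over 4.81 to 10.28 with BEZ235 and 4.58 to 7.53 with RAD001. Hsd17b6, an enzyme of steroid and retinol metabolism, differed by 1.41 (SE 0.63). G0s2, an inhibitor of the lipase ATGL, stood at 6.21, 6.89 and 8.29 in BEZ235 tumours, against 8.05, 8.35 and 9.10 in RAD001 tumours. Its difference was -1.41 (SE 0.47) in tumours and -0.98 in livers (unadjusted p = 0.00942 in limma). Chac1, which degrades glutathione and is induced by ATF4, differed by -1.39 (SE 0.60), but by 0.66 in livers. Cox6a2, a subunit of cytochrome oxidase best known from muscle, stood at 4.36, 4.72 and 5.57 in BEZ235 tumours, against 4.98, 5.59 and 7.98 in RAD001 tumours. Its difference was -1.0, and -0.58 without RAD001 animal 732. Ciapin1, a cytosolic iron-sulfur assembly factor, differed by -0.92. RAD001 animal 732 was highest for Ciapin1 at 9.85, against 7.91 to 8.30 in the other 5 RAD001 animals.

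Livers showed the same contrast in arrays the tumour fit did not use, though 5 animals of each treatment gave both tissues. There 16 genes passed (0.152% of 10495), 11 higher and 5 lower with BEZ235, and 901 lay below an unadjusted p of 0.05 (8.59%). Of the 12 genes of lowest p with higher tumour levels, 10 were also higher in BEZ235 livers and 5 of them lay below an unadjusted p of 0.05, beside 4.34% of all genes in that direction. The same counts, 10 and 5 of 12, held for the genes with lower tumour levels, beside 4.25% of all genes in that direction. Of all genes 47.8% had a positive liver difference. Depp1 and Frat2 were the members of these 24 that passed in livers.

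Of the 16 genes that passed in livers, 13 differed in the same direction in tumours, where 49.4% of all genes had a positive difference. In that direction 4 lay below an unadjusted p of 0.05 in tumours, beside 1.97% of all genes higher and 1.86% lower. Among them 1 passed, beside 0.00953% of all genes. Fbxo21, a ubiquitin ligase subunit, differed by 0.80 in livers and by 0.64 in tumours (unadjusted p = 0.0298 in limma). Bbc3, the cell death protein PUMA, differed by 0.91 in livers and by 0.64 in tumours, where its 3 probes ran between -0.12 and 0.64. Flcn, the folliculin tumour suppressor that acts on mTORC1 at the lysosome, differed by 0.67 in livers and by 0.33 in tumours. Sertad1, a cell cycle regulator, differed by -1.14 in livers and by -0.54 in tumours.

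Drug metabolism genes that passed in livers did not pass in tumours. Cyp2b10, a P450 induced through the receptor CAR, differed by 1.70 in livers, with means of 10.80 with BEZ235, 9.10 with RAD001 and 10.00 with placebo. Its lowest, median and highest tumour levels were 5.15, 6.03 and 9.76 with BEZ235, against 4.50, 6.02 and 11.09 with RAD001. The tumour difference was -0.06 (SE 0.86). It turned with single animals, from -0.71 to 0.83 with 1 animal left out, the highest without RAD001 animal 732, and kept its sign in 14 of 25 alternatives. The Cyp2b10 difference between tissues was -1.76 (SE 0.86, unadjusted p = 0.0469 in limma). Gsta1, a glutathione transferase, differed by 1.65 in livers and by 0.12 in tumours, and the P450 Cyp2c55 by 1.49 and by 0.00. Liver means of Gsta1 were 11.42 with BEZ235, 9.77 with RAD001 and 10.58 with placebo. Over all genes 0 passed the test of the tumour difference against the liver difference (0%), with 410 below an unadjusted p of 0.05 in limma (3.91%) and a smallest adjusted p of 0.385. Tcte3, at -0.56 in tumours and 0.29 in livers, had an unadjusted p of 3.67e-05 in that test. Its levels lay close to the floor in both tissues. They were 4.41 to 4.63 in BEZ235 and 4.68 to 5.42 in RAD001 tumours, and 4.56 to 4.91 and 4.31 to 4.73 in livers. Tcte3 exceeded the intensity limit of the probe filter on 0 of 10 BEZ235 tumours and 6 of 10 RAD001 tumours. At these levels the test cannot decide whether the sign turned between tissues.

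**Figure D3:**
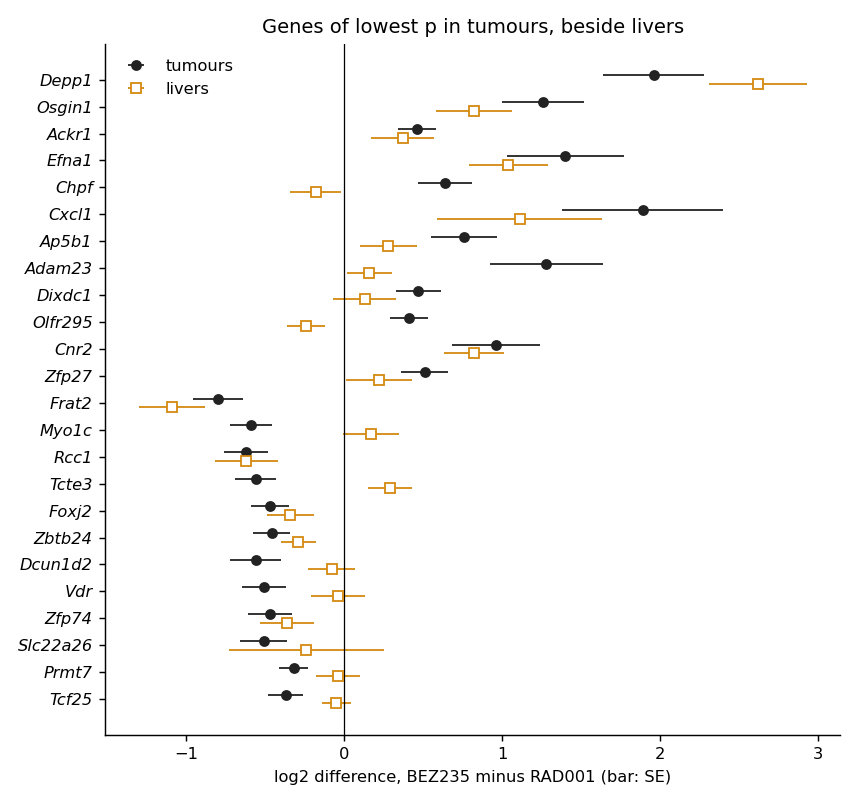
Log2 difference (BEZ235 minus RAD001, x axis, bars are SE) of the 24 genes of lowest p in tumours (y axis), in tumours (filled circles) and in livers (open squares). In 20 of the 24 genes the liver difference has the sign of the tumour difference, and Depp1 has differences of 1.96 in tumours and 2.62 in livers.

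Separate tumours of an animal could lie far apart. RAD001 animal 763 gave 2 tumours, of which tumour 2 stood at 12.47 for Depp1, as high as the BEZ235 tumours, and tumour 1 at 10.04. Tumour 2 also exceeded tumour 1 for Osgin1 (11.20 and 9.24), Efna1 (9.64 and 8.27), Cxcl1 (9.81 and 8.26) and Bbc3 (8.91 and 6.88), and lay below it for Frat2 (5.89 and 6.55). Other genes ran the other way between these tumours, with tumour 2 below tumour 1 for Adam23 (4.56 and 7.11) and Cyp2c55 (4.81 and 10.31), and above it for Foxj2 (6.79 and 6.17) and Dcun1d2 (6.57 and 5.86). Tumour 2 exceeded tumour 1 in 7 of the 12 genes of lowest p with higher levels in BEZ235 tumours, and lay below it in 5 of the 12 with lower levels. The liver of this animal had a Depp1 level of 8.89, the median of the RAD001 livers. In BEZ235 animal 759, Efna1 stood at 10.84 and 8.63 in its 2 tumours. Without tumour 2 of animal 763 the Depp1 difference was 2.16 (limma's adjusted p = 0.00224). Without that tumour and BEZ235 animal 755, a setting added after their levels had been seen, Depp1 differed by 2.38 and Osgin1 by 1.57, and both passed (adjusted p = 0.00019 and 0.035). Over all genes the median SD was 0.32 between single tumours of an animal and 0.29 between the averages of animals of a treatment. Averaging tumours narrows the latter spread, so these values cannot be ranked.

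**Figure D4:**
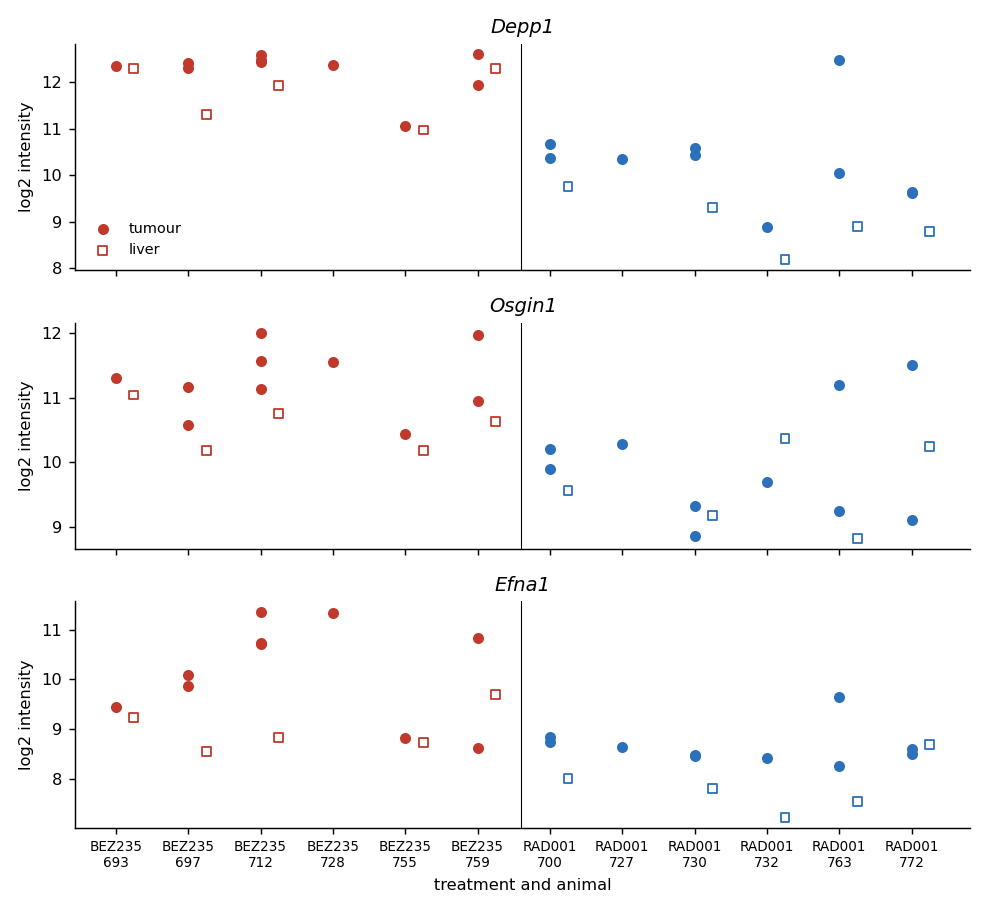
Log2 intensity (y axis) of Depp1, Osgin1 and Efna1 in every tumour (filled circles) and liver (open squares), by treatment and animal (x axis), BEZ235 in red and RAD001 in blue. The tumours of RAD001 animal 763 stand at 12.47 and 10.04 for Depp1.

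The gene lists below were read against all genes tested, of which 49.4% had a positive difference in tumours. Apart from Depp1, no member passed over all genes, the smallest other adjusted p being 0.263, so the values are differences that did not pass. Without the 4 animals that scored toward liver the median changed sign in 10 of 41 lists, and with 1 animal left out in at least 1 fit in 21. Of the named genes below an unadjusted p of 0.05, 11 moved by over 1.5 times with 1 animal left out, 7 of them most without RAD001 animal 732. FOXO and insulin-repressed genes had a positive difference in 14 of 17 members tested, with a median of 0.18. Depp1 was the 1 member below an unadjusted p of 0.05. Igfbp1, a secreted binding protein of insulin-like growth factors that insulin represses, differed by 0.90 (SE 0.62), with 7.18 to 10.41 in BEZ235 tumours and 7.06 to 9.24 in RAD001 tumours. Irs2, an insulin receptor substrate, differed by 0.25. Pck1 and G6pc, the enzymes at the start and the end of glucose production from lactate and amino acids, differed by 0.09 (SE 0.36) and 0.04 (SE 0.38). Both treatments share the placebo tumours, against which Pck1 differed by 1.31 with BEZ235 and by 1.22 with RAD001.

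In the PI3K, AKT and mTOR pathway 10 of 27 genes had a positive difference, with a median of -0.08. Ddit4, the mTORC1 inhibitor REDD1, stood at 7.31, 8.53 and 9.77 in BEZ235 tumours, against 8.55, 9.46 and 10.04 in RAD001 tumours. Its difference was -0.75 (SE 0.34, unadjusted p = 0.0389 in limma), and -0.49 without BEZ235 animal 759. Genes of ATF4 and serine synthesis, whose transcription mTORC1 promotes, were positive in 4 of 17, with a median of -0.22, and 4 members lay below an unadjusted p of 0.05. These were the factor Atf4 itself (-0.35), the mitochondrial folate enzyme Mthfd2 (-0.40), the amino acid transporter Slc7a5 (-0.67) and Chac1 (-1.39). Mthfd2 lay close to the floor, at 4.68 to 5.47 with BEZ235 and 5.25 to 5.62 with RAD001. Asns, which makes asparagine, differed by 0.12 and Psat1, of serine synthesis, by -0.20. Chaperones of the endoplasmic reticulum were positive in 11 of 14 (median 0.08), with Xbp1, a factor of the unfolded protein response, at 0.46 (0.28 without RAD001 animal 732). Ribosomal proteins and elongation factors were positive in 10 of 20, with a median of 0.00, and ribosome biogenesis genes in 5 of 15 (-0.13). Autophagy genes were positive in 12 of 27 (-0.04) and lysosomal genes in 10 of 22 (-0.03), or in 16 of 22 (0.06) without the 4 animals toward liver. Sqstm1, an autophagy receptor, differed by -0.18 and Map1lc3b, which coats autophagosomes, by -0.04.

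Genes on the list for ERK feedback were positive in 12 of 13, with a median of 0.18. Without the 4 animals toward liver 9 of 13 were positive (0.10), and without RAD001 animal 732 the median was 0.05. Dusp6, a phosphatase of ERK, stood at 10.64, 11.79 and 12.65 in BEZ235 tumours, against 10.43, 11.16 and 11.78 in RAD001 tumours, a difference of 0.62 (SE 0.29, unadjusted p = 0.045 in limma) from 3 probes between 0.54 and 0.67. Efna1, the receptor ligand described above, was placed on the same list. In livers 8 of the 13 were positive, with a median of 0.02, where 47.8% of all genes were. Immediate early genes were positive in 11 of 18 (0.09), with Klf6 at 0.67 (its 2 probes at 0.19 and 0.67) and Klf2 at -0.56, both Krüppel-like factors. In livers Klf6 differed by 0.86 and Klf2 by -0.82. Circadian clock genes were positive in 11 of 16 (0.11), with Bhlhe40 at 0.63 and Cry2 at -0.49.

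Oxidative phosphorylation genes were positive in 2 of 23, with a median of -0.12. Cycs, cytochrome c, stood at 5.04, 5.44 and 5.60 in BEZ235 tumours, against 5.62, 5.77 and 6.24 in RAD001 tumours, with no overlap and a difference of -0.44 (SE 0.14). Its 2 probes disagreed, at -0.44 and 0.21. Uqcrc2, of complex III, differed by -0.32 (-0.21 without RAD001 animal 732) and Cox4i1, of cytochrome oxidase, by -0.25. Without animals 693, 759, 732 and 730, 8 of the 23 were positive (median -0.10). Glycolysis and hypoxia genes were positive in 5 of 19 (-0.12), and in 11 of 19 (0.04) without these 4 animals, so the direction turned. Vegfa, the vessel growth factor, differed by 0.45, with its 2 probes at 0.15 and 0.45, and Pfkfb3 by 0.30. The lactate carrier Slc16a3 differed by -0.34, and by -0.20 without RAD001 animal 727. Pfkfb3 and Slc16a3 lay close to the floor, at 4.65 to 5.23 and 4.62 to 4.96 with BEZ235. With RAD001 they stood at 4.47 to 4.78 and 4.80 to 5.82.

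Cholesterol synthesis genes were positive in 16 of 19, with a median of 0.20, and 0 lay below an unadjusted p of 0.05 in limma. Without animals 693, 759, 732 and 730, 7 of 19 were positive (-0.04), so the direction turned. Stard4, a sterol carrier, differed by 0.60 and the sterol isomerase Ebp by -0.34. Fatty acid synthesis genes were positive in 8 of 15 (0.07), with the carbohydrate-responsive factor Mlxipl at 0.42 (0.19 without RAD001 animal 732), Fasn at -0.14 and Srebf1 at 0.07. Fatty acid oxidation and PPARA targets were positive in 12 of 20 (0.02), with Ppara at 0.46, and in 4 of 20 (-0.13) without the 4 animals.

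No proliferation gene passed. Mitosis genes were positive in 8 of 12 (0.08), with Bub1b of the spindle checkpoint at 0.19, and DNA replication genes in 6 of 19 (-0.16), with Rrm1 at -0.47. Without the 4 animals that scored toward liver, mitosis genes were positive in 12 of 12 (0.28) and DNA replication genes in 13 of 19 (0.15). Ccnd1, cyclin D1, differed by 0.18. In the list of p53 targets and growth arrest genes 10 of 18 were positive (0.04), with Bbc3 at 0.64.

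Stress and drug metabolism genes had their lowest p in Osgin1. NRF2 targets were positive in 11 of 18 (0.13). Their median was -0.18 with 1 tumour per animal, so the direction turned, and -0.05 to 0.22 with 1 animal left out. Gsta4, a glutathione transferase, stood at 9.72, 10.05 and 10.70 in BEZ235 tumours, against 8.85, 9.38 and 9.69 in RAD001 tumours. Its groups did not overlap and it differed by 0.75 (SE 0.28), but by 0.30 with 1 tumour per animal. CAR and PXR drug metabolism genes were positive in 13 of 18 (0.14), with Cyp3a25 at 0.83 and Cyp2a5 at 0.47. The Cyp2a5 difference was 0.01 with 1 tumour per animal and 0.27 without RAD001 animal 763. Aryl hydrocarbon receptor targets were positive in 3 of 5 (0.08), with Cyp1a2 at 1.26 (SE 0.63) in tumours and 0.62 in livers (unadjusted p = 0.000907 in limma). Of the genes of bile acid synthesis and transport 13 of 17 were positive (0.19), among them the bile salt export pump Abcb11 at 0.64 (0.42 without RAD001 animal 732).

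No gene of hepatocyte identity passed. Hepatocyte transcription factors and secreted proteins were positive in 19 of 21 with a median of 0.09, or in 14 of 21 (0.05) without the 4 animals toward liver. Foxa1, a pioneer factor of liver on this list, differed by 0.57, and by 0.34 without RAD001 animal 732. The mean log2 level of this list was 10.99 to 11.22 in BEZ235 tumours and 10.71 to 11.03 in RAD001 tumours, so hepatocyte genes were strongly present in all. Male-biased liver genes were positive in 11 of 12, with a median of 0.52, and 0 lay below an unadjusted p of 0.05 in limma. BEZ235 animal 693 had the highest level of this list, 10.70, and without the 4 animals that scored toward liver its median was 0.05. Female-biased genes were positive in 2 of 7 (-0.06). Urea cycle and amino acid breakdown genes were positive in 9 of 22 (-0.03) and periportal genes in 5 of 9 (0.09), with the periportal P450 Cyp2f2 at 0.45 (SE 0.60). Without the 4 animals toward liver these counts were 19 of 22 (0.24) and 9 of 9 (0.46). Against the shared placebo tumours Cyp2f2 differed by 2.50 with BEZ235 and by 2.05 with RAD001. Pericentral and Wnt target genes were positive in 9 of 16 (0.03), and in 8 of 16 (-0.03) without the 4 animals. The Wnt target Axin2 differed by -0.58, and by -0.23 without RAD001 animal 763. Acute phase and iron genes were positive in 16 of 23 (0.03), with Saa4 at 0.85 (0.46 without RAD001 animal 732).

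Fetal and carcinoma markers were positive in 10 of 12, with a median of 0.17. Gpc3, an oncofetal proteoglycan, stood at 7.36, 11.03 and 12.61 in BEZ235 tumours, against 5.02, 9.65 and 11.90 in RAD001 tumours, a difference of 1.59 (SE 1.02). Akr1c18, a steroid dehydrogenase, differed by 1.48 (SE 0.82), and Afp, alpha-fetoprotein, by 0.44 (SE 0.79). The groups overlapped for all 3, and RAD001 animals reached lower levels, down to 6.46 for Akr1c18 (9.74 to 12.40 with BEZ235, 6.46 to 12.57 with RAD001).

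Interferon response genes were positive in 1 of 19, with a median of -0.16. Stat2, which carries the interferon signal to the nucleus, differed by -0.41 (SE 0.16, unadjusted p = 0.0188 in limma). The mean log2 level of the list ran over 7.04 to 8.27 in BEZ235 tumours and 7.28 to 9.50 in RAD001 tumours, with RAD001 animal 732 highest at 9.50 and the next RAD001 animal at 8.24. Without animals 693, 759, 732 and 730 the direction turned, with 11 of 19 positive and a median of 0.11.

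**Figure D5:**
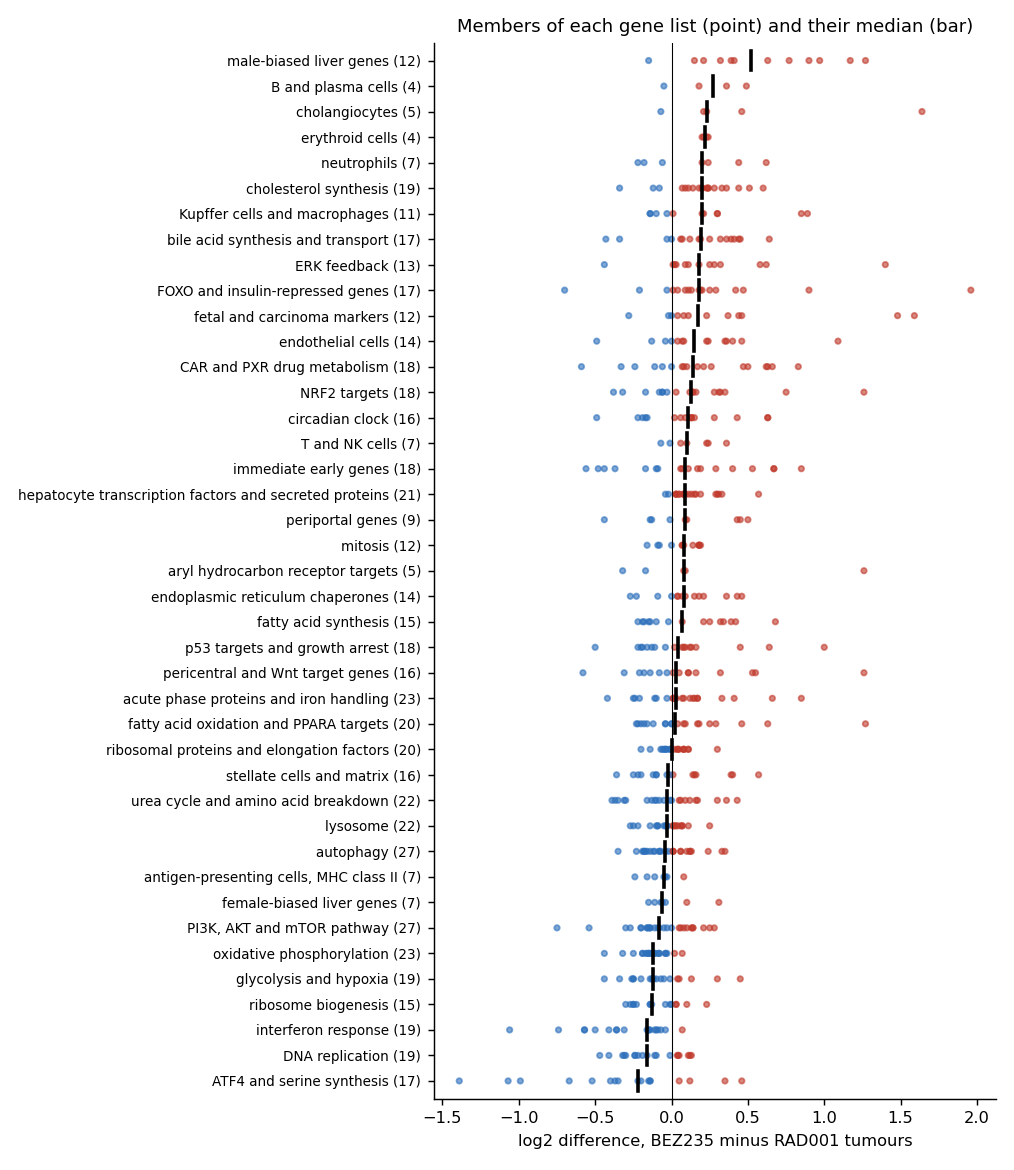
Log2 difference (BEZ235 minus RAD001 tumours, x axis) of each tested member of 41 gene lists (y axis, number tested in parentheses), red above and blue below 0, with the median of each list as a bar. Male-biased liver genes have the highest median, 0.52, and ATF4 and serine synthesis genes the lowest, -0.22.

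Markers of other cell types that passed the intensity filter were read in tumours of both treatments. Kupffer cell and macrophage markers were positive in 7 of 11 (median 0.20), at mean log2 levels of 6.84 to 7.75 with BEZ235 and 6.55 to 7.65 with RAD001. Among them the Kupffer cell lectin Clec4f differed by 0.89, with its 2 probes at 0.06 and 0.89, and the complement receptor Vsig4 by 0.85. Endothelial markers were positive in 10 of 14 (0.15), at 7.06 to 7.75 with BEZ235 and 6.78 to 7.47 with RAD001, and the sinusoidal lectin Clec4g differed by 1.09 (SE 0.50), and by 0.60 without RAD001 animal 763. T and NK cell markers were positive in 5 of 7 (0.10), B and plasma cell markers in 3 of 4 (0.27), with Cd79b at 0.36, and MHC class II genes in 1 of 7 (-0.05). Cd79b lay close to the floor, at 4.73 to 5.43 with BEZ235 and 4.44 to 4.80 with RAD001. Without the 4 animals toward liver MHC class II genes were positive in 7 of 7 (0.31), and with 1 animal left out their median ran between -0.34 and 0.18. Stellate cell and matrix markers were positive in 7 of 16 (-0.02), or 12 of 16 (0.10) without the 4 animals, with decorin (Dcn) at 0.39, cholangiocyte markers in 4 of 5 (0.23) and erythroid markers in 4 of 4 (0.22). Tspan8, on the cholangiocyte list, differed by 1.64 (SE 0.97), and Hba-a1, of haemoglobin, by 0.21. Of the markers with a probe, 7 of 14 for T and NK cells, 4 of 8 for B and plasma cells and 7 of 11 for neutrophils passed the filter. Camp and Mpo, of neutrophil granules, averaged 4.41 and 4.64 with BEZ235 and 4.63 and 4.39 with RAD001, close to the floor. The part of these cells in the differences above was not tested.

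Each treatment was also set against placebo tumours, which both comparisons share. With BEZ235 0 genes passed (0%), with 558 below an unadjusted p of 0.05 in limma (5.32%), and with RAD001 0 genes passed (0%), with 740 below it (7.05%). Depp1 differed from placebo by 0.98 with BEZ235 (SE 0.32) and by -0.98 with RAD001 (SE 0.32), so the placebo mean lay midway. For Osgin1 these values were 0.09 and -1.17, for Cxcl1 0.05 and -1.84, for Frat2 -0.10 and 0.71, and for Efna1 1.01 and -0.39. Osgin1, Cxcl1 and Frat2 stood nearer to placebo with BEZ235 and Efna1 nearer to it with RAD001. For Rcc1 the values were -0.48 with BEZ235 and 0.14 with RAD001, and for Prmt7 -0.36 and -0.04.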

How the data were processed

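Total RNA of 64 tissue samples was hybridised to Illumina mouse expression arrays. The deposited values are linear intensity values with background subtracted, made with BeadStudio, as named in the submitters' processing notes, version not given in the sources used here. In each treatment the sorted brightest values of all arrays were the same, so the authors' values carry a quantile normalization of each treatment alone. A further table, with 128 value columns whose names match no label, was not used, so negative controls and detection p-values were not used, and the neqc normalization named in the design was replaced by the steps here. All 64 arrays were quantile-normalized together, corrected by normexp (mean 0, SD 7.02, offset 16) and taken to log2. Probes above an intensity of 14.0 on at least 6 arrays were kept, 15244 of 25697, and the brightest probe stood for each of 10495 genes, 2728 of which had several probes. Gene symbols came from the platform annotation, updated by Entrez number (16 were not updated).

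The animal was the replicate, since the number that opens a label names the mouse. Tumours of an animal were averaged, and limma (R 4.3.3, limma 3.58.1) was fitted on log2 values of the 4 tumour groups, of the 4 liver groups, and for the difference between tissues over all 8 groups, where the animal was a random block (correlation 0.0968). The number of arrays limits the precision. The text names genes past the limit, the 12 lowest p and 5 largest differences in each direction with predicted genes left out, list members below an unadjusted p of 0.05 or else the 2 of lowest p, and a fixed set of genes, of which Cyp1a1 stayed below the intensity filter and some are not reported here. Of 776 genes on 41 lists, 692 had a probe and 605 were tested. The members, lists and named genes were chosen with earlier results of these data known. The fit was tested on simulated data. Alternatives changed the normalization, background, filter, probe choice, samples in the fit and animals left out.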

Additional observations from a re-analysis of the deposited data

Results flagged for a closer look

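Among 98 groups of 6 animals, 9 held an animal far from the rest by Dixon's test, and among 8 groups of single tumours 3 did. Chance gives about 1 in 20 for independent values. Tumours of an animal are not independent and the genes were chosen from these data, so the counts are not set against that rate. In BEZ235 animals, Depp1 was lowest in animal 755 at 11.06, against 12.27 to 12.50 in the other 5. Ackr1 was highest in BEZ235 animal 728 at 5.50, and Frat2 was lowest in the same animal at 4.99. Gpc3 was lowest in BEZ235 animal 693 at 7.36, against 10.64 to 12.61 in the others, and this animal had the lowest tumour score, 0.302.

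RAD001 animal 732, with 1 tumour and a tumour score of 0.458, was highest for Chpf (4.95), Zbtb24 (7.93), Ciapin1 (9.85) and Cyp2b10 (11.09). In Cyp2b10 the other RAD001 animals lay between 4.50 and 6.86. Tcf25 was lowest in RAD001 animal 700 at 10.33.

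Among single tumours, Depp1 was lowest in the BEZ235 tumour of animal 755 (11.06, against 11.93 to 12.60 in the other 9) and highest in RAD001 tumour 2 of animal 763 (12.47, against 8.89 to 10.66). Efna1 was also highest in that RAD001 tumour (9.64, against 8.27 to 8.85).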

How the results depend on the processing

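Over 25 alternatives all 63 named genes with an unadjusted p below 0.05 kept their direction. These genes were chosen by that p in the same arrays, so a kept direction was likely beforehand and is no separate support. The count of genes past the limit in tumours was 1. It was 0 with the deposited values without joint normalization (Depp1 1.85), with no filter on dim probes (1.96), with the mean of a gene's probes (1.96), with only BEZ235 and RAD001 tumours in the fit (1.96), with an intensity trend and robust spread (1.96) and without animals 693, 759, 732 and 730 (1.64), and Depp1 missed the limit in each. With no filter 16593 genes were adjusted for, and in the fit of both treatments alone fewer animals estimated the spread. For the other settings the cause was not tested. The count was 2 without animal 755 and tumour 763T2, a setting chosen after seeing the data, where Osgin1 passed at 1.57. With 1 animal left out the count ran between 0 and 1 and the Depp1 difference between 1.70 and 2.18. The count in livers stayed within 1.5 times of 16, and that of the tissue difference stayed at 0. No paired analysis was possible because BEZ235 and RAD001 tumours come from different animals. Low levels near the floor of 4 compress differences and spreads, as for Ackr1, Chpf, Olfr295, Tcte3, Zfp74 and Myo1c. Many of their arrays did not exceed the intensity limit of the probe filter. Tcte3 and Zfp74 exceeded it on 0 of 10 BEZ235 tumours, and on 6 and 4 of 10 RAD001 tumours. With BEZ235 and RAD001, Olfr295 exceeded it on 5 and 0 tumours, Ackr1 on 5 and 1, Chpf on 6 and 1, and Myo1c on 1 and 8. How far their low p rests on such levels was not tested. With 6 animals a group and a median SE of 0.17, small differences could not be told from 0 here.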
